A study of Mus musculus with 3 samples.

Results

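The Polycomb complex subunits described here are the products of 10 genes, Ezh1, Ezh2, Suz12, Eed, Jarid2, Mtf2, Ring1, Rnf2, Bmi1 and Cbx7. They were chosen by name, as the non-control spots of the arrays whose gene name or accession belongs to one of these genes. This gave 19 probes, each spotted once, of the 41174 probes in the files, and 10 of the 19505 genes that could be named from the reference. RNA was measured in mouse V6.5 embryonic stem (ES) cells, whose background mixes 129 and C57BL6, on 3 Agilent 1-colour arrays labelled with Cy3. Of these arrays 2 carried RNA labelled as Tet1 knockout (KO 4 and KO 22) and 1 carried RNA labelled as Tet1 wild type, so the wild type group has no replicate. Both genotypes grew on irradiated feeders in medium with leukaemia inhibitory factor (LIF), and preplating, a step that lets feeder cells settle out, came before RNA extraction. No label tells whether KO 4 and KO 22 are separate clones or cultures, so a p-value here covers no more than the scatter of these samples, which could be technical. In such bulk RNA, fewer cells of a type and less RNA per cell cannot be told apart.

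Polycomb group proteins keep developmental genes silent through histone marks. Polycomb repressive complex 2 (PRC2) methylates lysine 27 of histone H3, and Polycomb repressive complex 1 (PRC1) attaches ubiquitin to histone H2A and compacts chromatin. In ES cells both complexes sit at CpG-rich promoters of lineage regulators. Tet1, the enzyme absent by label from the knockout cells, oxidises 5-methylcytosine and also binds CpG-rich promoters, many of which PRC2 occupies.

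The arrays had 62.2% to 62.8% of their 43379 non-control spots well above background, and 0 were saturated. All 3 arrays lay on 1 slide and were scanned in 1 run. Levels were log2 processed intensities minus the 75th percentile of the array, which was 717.7 on KO 4, 644.9 on KO 22 and 623.7 on wild type, and differences are knockout minus wild type on that log2 scale. The Tet1 probe had a difference of -1.94 ± 0.09 (SE from limma, n = 2 against 1, adjusted p = 0.0477), and over the alternatives its adjusted p ran from 5.06e-44 to 0.176. Whether this probe lies in deleted sequence was not examined. All 8 ES cell markers and all 16 fibroblast markers examined were well above background on every array. The ES cell markers had a median difference of -0.04, with values from -0.47 to 0.40, and limma called none of them. The fibroblast markers had a summed intensity of 12044 on KO 4, 8776 on KO 22 and 9251 on wild type, and a median difference of 0.71 on KO 4 against -0.09 on KO 22.

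The probes of Suz12 and Eed were 1.25-fold to 1.35-fold higher on the knockout arrays, and those of the catalytic subunits Ezh2 and Ezh1 lay near wild type. None of these differences passed the test across all probes. Suz12 encodes the zinc finger subunit that holds PRC2 together, Eed the subunit that reads trimethylated lysine 27, and Ezh2 and Ezh1 alternative methyltransferases, of which Ezh2 predominates in dividing cells.

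The Suz12 probe A_51_P214796 had processed intensities of 3502 on KO 4, 3345 on KO 22 and 2447 on wild type. After scaling, its levels were 2.29, 2.37 and 1.97, a difference of 0.36 ± 0.10 with a 95% interval from 0.04 to 0.67 (limma adjusted p = 0.157). The other Suz12 probe (A_52_P302203) had intensities of 390, 357 and 254 and a difference of 0.43 ± 0.09, with an interval from 0.14 to 0.72 (limma adjusted p = 0.124). Both knockout arrays lay above the 1 wild type array on 39.9% of all probes tested. They did so on both Suz12 probes, by 0.31 to 0.44. The probes lie on chromosome 11 of build mm7, at 80115324 to 80115383 and at 80095051 to 80095110, so a difference of like size was read at separate places of the gene.

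The single Eed probe (A_51_P238643) gave 8706 on KO 4, 7809 on KO 22 and 6045 on wild type. The scaled levels were 3.60, 3.60 and 3.28, and the difference was 0.32 ± 0.09, with an interval from 0.04 to 0.61 (limma adjusted p = 0.159). KO 4 and KO 22 coincided to 2 decimals here, and the error comes almost wholly from the spread that limma shares among probes (prior SD 0.09). The probe's coordinates on chromosome 7 of mm7 run over 2910 bases, from 85913246 to 85916155, where most probes cover 60 bases. The spot of Eed on KO 4 carried a flag for an unusual local background, a value that does not enter the processed intensity. Without that spot the difference, then from KO 22 alone, was again 0.32 (limma adjusted p = 0.274).

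For Ezh2 the intensities were 6114 on KO 4, 5674 on KO 22 and 5540 on wild type, and the scaled levels of 3.09, 3.14 and 3.15 were nearly level across the arrays. Its difference was -0.04 ± 0.10, and the interval from -0.33 to 0.26 corresponds to 0.795-fold to 1.19-fold (limma adjusted p = 0.827). In the deposited series matrix values it was 0.05, so its sign was not settled. The wild type spot of Ezh2 carried the same background flag, and no difference could be had without it.

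Ezh1 had intensities of 379 on KO 4, 404 on KO 22 and 370 on wild type. Its knockout arrays lay on opposite sides of wild type, at -0.17 and 0.08, and the mean difference was -0.04 ± 0.15 (interval -0.50 to 0.41, limma adjusted p = 0.87). With a gap of 0.25 between KO 4 and KO 22, Ezh1 had the widest knockout spread of the tested probes. Of the 22 non-control spots within 2 rows and columns of its own, 4 were bright on the wild type array alone, and their part in the Ezh1 value was not tested.

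**Figure D1:**
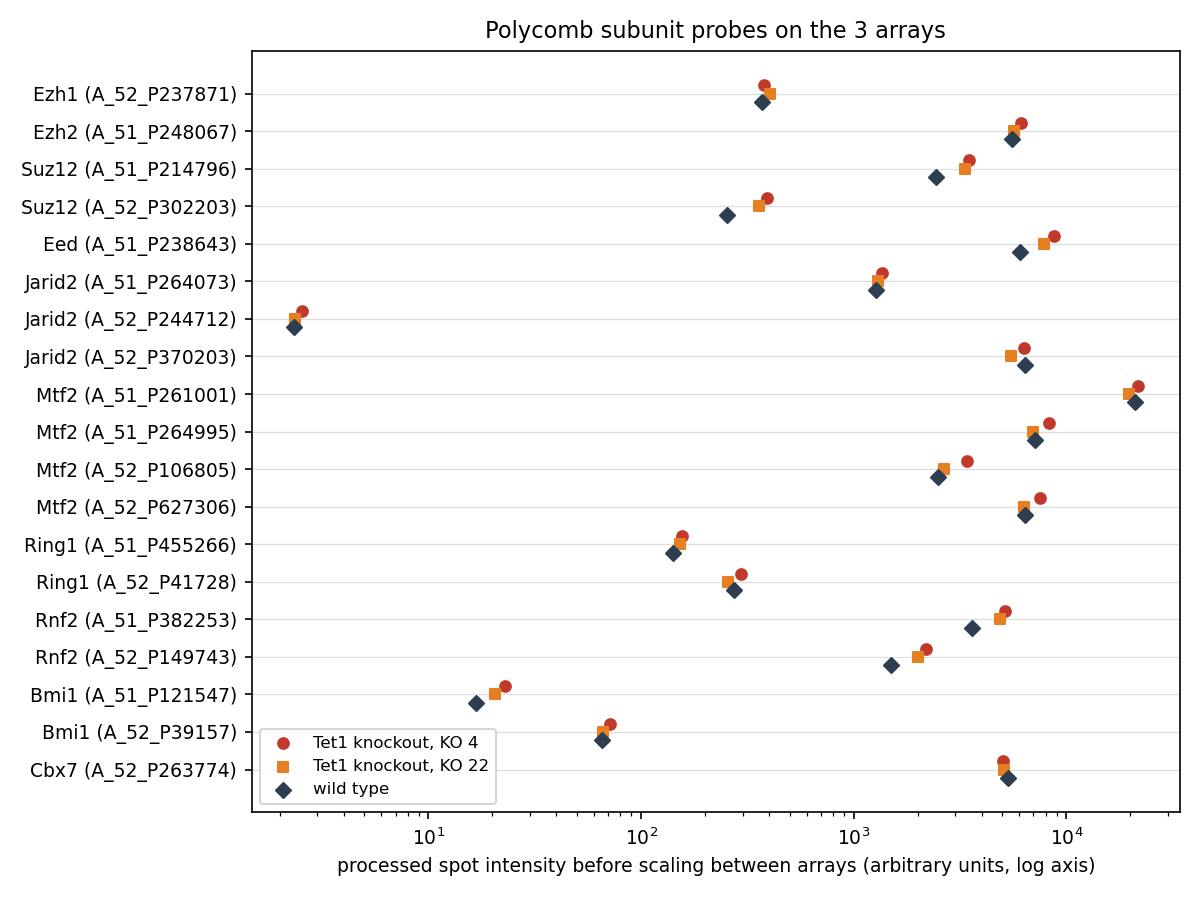
Processed intensity of each of the 19 probes on KO 4 (circles), KO 22 (squares) and wild type (diamonds), on a log axis and before any scaling between arrays. Wild type lies left of both knockout arrays by the widest margin for Suz12, Rnf2 and Eed. The Jarid2 probe A_52_P244712 lies at 2.33 to 2.55 and was not well above background on any of the 3 arrays.

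The promoters of the genes with the highest differences, Suz12, Eed and Rnf2, are shown beside that of Ezh2, which lay near wild type, because Tet1 and both Polycomb complexes bind CpG-rich DNA. Each run holds the 250 bases before the RefSeq start on GRCm38.p6, read 5′ to 3′ on the gene's strand, with CpG dinucleotides in capitals.
Suz12 (chr11:79992856-79993105, plus strand): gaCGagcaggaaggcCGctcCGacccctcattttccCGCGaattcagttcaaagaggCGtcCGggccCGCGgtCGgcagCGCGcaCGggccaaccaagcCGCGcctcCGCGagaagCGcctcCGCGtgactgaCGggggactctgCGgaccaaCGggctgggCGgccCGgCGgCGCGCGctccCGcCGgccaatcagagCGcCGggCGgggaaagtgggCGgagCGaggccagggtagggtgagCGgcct
Eed (chr7:89980977-89981226, minus strand): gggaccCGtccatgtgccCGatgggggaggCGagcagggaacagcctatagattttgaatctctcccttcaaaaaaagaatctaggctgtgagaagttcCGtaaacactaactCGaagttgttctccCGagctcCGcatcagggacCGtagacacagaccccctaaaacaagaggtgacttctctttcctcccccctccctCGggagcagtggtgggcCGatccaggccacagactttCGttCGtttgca
Rnf2 (chr1:151500992-151501241, minus strand): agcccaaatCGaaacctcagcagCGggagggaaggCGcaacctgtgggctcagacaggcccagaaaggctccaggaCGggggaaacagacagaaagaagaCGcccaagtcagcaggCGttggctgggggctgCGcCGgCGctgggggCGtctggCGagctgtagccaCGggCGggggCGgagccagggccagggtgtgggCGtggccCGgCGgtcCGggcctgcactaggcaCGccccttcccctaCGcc
Ezh2 (chr6:47595031-47595280, minus strand): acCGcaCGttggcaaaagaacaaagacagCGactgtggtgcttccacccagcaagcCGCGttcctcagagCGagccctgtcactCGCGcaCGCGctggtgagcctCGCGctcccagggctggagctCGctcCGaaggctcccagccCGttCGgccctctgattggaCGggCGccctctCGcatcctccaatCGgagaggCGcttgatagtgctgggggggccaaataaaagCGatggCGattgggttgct
Of these, Suz12 held 37 CpG, more than any other of the 12 member promoters, and only 2.2% of the 32841 promoters of the reference held as many. Rnf2 held 20 CpG, Eed 12 and Ezh2 23, against a median of 6 over all promoters. The Ezh2 promoter also held 3 copies of CCAAT, counted on both strands, and that of Suz12 held 1, while 33.86% of all promoters held at least 1. No copy of TTCCCGCC, a form of the E2F motif, was in any of the 12 windows on either strand, and 1.85% of all promoters held it. Over the 10 genes the CpG count was 12 or more except in the second Mtf2 promoter, which held 2. Of the genes near or below wild type, Ring1 held 30 and Jarid2 held 23 and 22, more than Rnf2 or Eed. No methylation was measured here.

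Among the PRC2 partners, no probe of Jarid2 or Mtf2 passed the test. Jarid2 encodes a DNA-binding protein of the Jumonji family that brings PRC2 to its targets and tunes its activity, and Mtf2 a Polycomb-like protein that binds unmethylated CpG-rich DNA and recruits PRC2.

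The Jarid2 probe A_52_P370203 gave 6306 on KO 4, 5476 on KO 22 and 6390 on wild type. Both knockout arrays lay below wild type after scaling, by -0.22 and -0.27, and the difference of -0.25 ± 0.10 was the lowest of all tested member probes (interval -0.54 to 0.05, limma adjusted p = 0.22). A second probe of the same transcript (A_51_P264073), at 44369631 to 44369690 on chromosome 13 of mm7 against 44370473 to 44370532 for the first, gave 1354, 1294 and 1269, with a smaller difference of -0.07 ± 0.10 (limma adjusted p = 0.71). The third probe (A_52_P244712), designed from the clone AK044888 and not from the reference transcript, read 2.55, 2.36 and 2.33. These values were surrogates for spots not well above background, so this probe gives no level on any array and was not tested.

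Mtf2 was read by 4 probes, and they did not share a direction. Probe A_51_P261001 gave 21621 on KO 4, 19609 on KO 22 and 21025 on wild type, with a difference of -0.16 ± 0.09 (limma adjusted p = 0.359). Probe A_52_P106805 gave 3399, 2669 and 2479, with a difference of 0.16 ± 0.13 (limma adjusted p = 0.494) that came mainly from KO 4, at 0.25 against 0.06 on KO 22. Probes A_51_P264995 (8329, 6990 and 7099) and A_52_P627306 (7538, 6304 and 6366) had differences of -0.02 and -0.01, with KO 4 above and KO 22 below wild type on each. The Mtf2 probes thus spanned 0.31 on the log2 scale, nearly the size of the Eed difference, and all 4 intervals held 0. On chromosome 5 of mm7 the probe with the highest difference begins at 107258308 and the one with the lowest ends at 107286302, and the other two lie between them. Whether the probes read different transcript forms was not tested.

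In PRC1 the ubiquitin ligase subunit Rnf2, also called Ring1B, was 1.27-fold and 1.28-fold higher on the knockout arrays by its probes, though not past the test. Its paralog Ring1 lay near wild type, Bmi1 differed in sign between probes and Cbx7 lay below wild type on both knockout arrays, none of them past the test. Rnf2 and Ring1 encode alternative E3 ligases for histone H2A, of which Rnf2 is the main one in ES cells, Bmi1 encodes a RING finger partner of the ligase, and Cbx7 the chromodomain protein that binds methylated lysine 27 and is the main Cbx subunit of ES cells.

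The Rnf2 probe A_51_P382253 gave 5139 on KO 4, 4873 on KO 22 and 3605 on wild type. Its difference was 0.35 ± 0.10, with an interval from 0.04 to 0.65 (limma adjusted p = 0.159). The wild type spot of this probe carried the background flag described for Eed, and no difference could be had without it. The other Rnf2 probe (A_52_P149743) gave 2188, 2002 and 1495, a difference of 0.36 ± 0.09 with an interval from 0.07 to 0.65 (limma adjusted p = 0.144). The probes, at 151402951 to 151403010 and at 151404443 to 151404502 on chromosome 1 of mm7, thus gave nearly equal differences, with both knockout arrays above wild type. The promoter of Rnf2 is printed above with those of Suz12 and Eed.

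For Ring1, the probe A_52_P41728 gave 294 on KO 4, 256 on KO 22 and 272 on wild type, a difference of -0.12 ± 0.10 (limma adjusted p = 0.487). The probe A_51_P455266 gave 155, 153 and 142 and a difference of -0.01 ± 0.11 (limma adjusted p = 0.981), with KO 4 below and KO 22 above wild type. The wild type spot of this probe also carried the background flag. The intervals reached at most 0.34 above and -0.41 below wild type. The difference between Rnf2 and Ring1 was itself not tested.

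Both Bmi1 probes had low intensities. Probe A_52_P39157 gave 71.5 on KO 4, 66.3 on KO 22 and 65.6 on wild type, with a difference of -0.06 ± 0.10 (limma adjusted p = 0.736). Probe A_51_P121547 gave 22.8, 20.6 and 16.7, with a difference of 0.25 ± 0.09 (limma adjusted p = 0.211). The probes of Bmi1 therefore went opposite ways, and the positive value of the second was -0.01 with normexp, a model-based background correction, run without 8 spots whose signal was below their background, so no direction can be given for the gene.

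Cbx7 gave 5036 on KO 4, 5082 on KO 22 and 5287 on wild type. Both knockout arrays lay below wild type, by -0.27 and -0.11, and the difference was -0.19 ± 0.12 (interval -0.57 to 0.19, limma adjusted p = 0.389). Its lower bound is the lowest of any member.

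**Figure D2:**
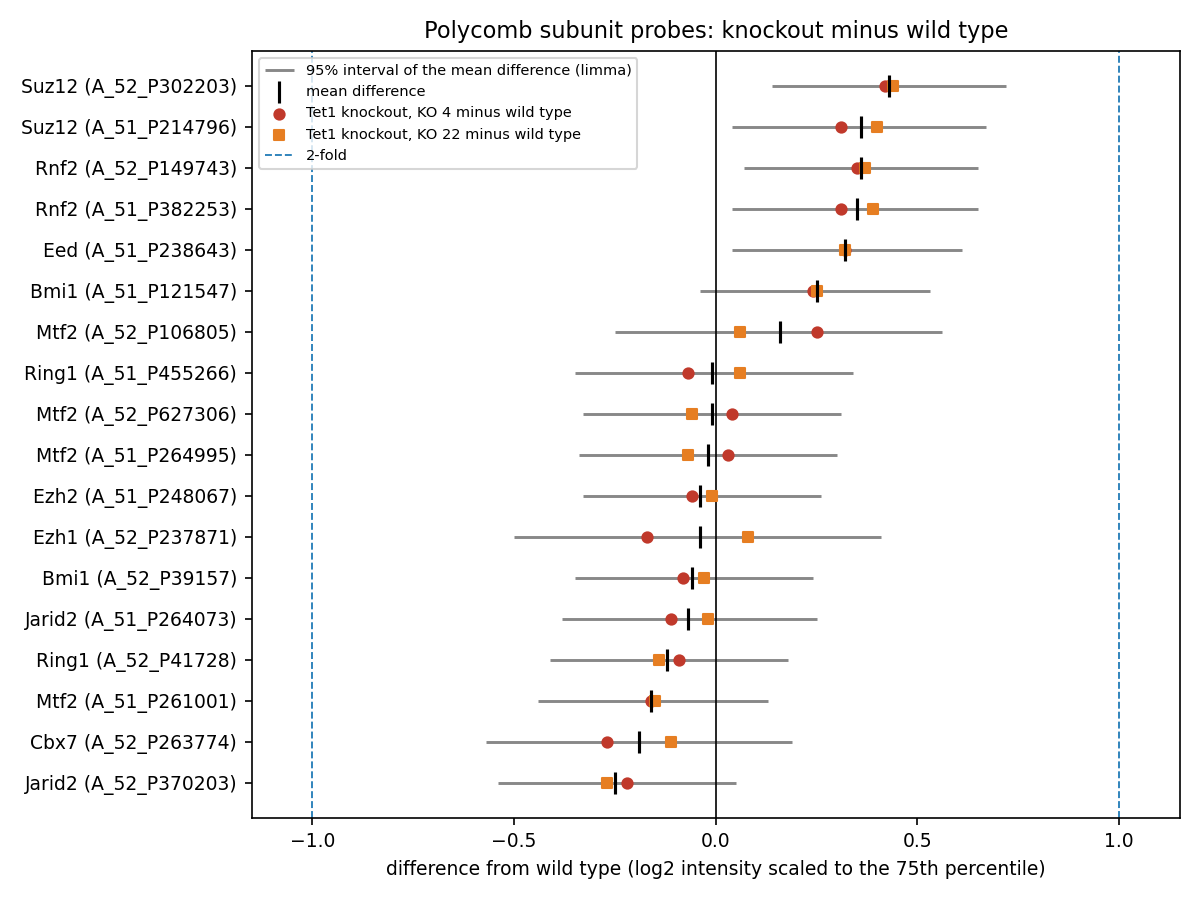
Differences from wild type of the 18 tested probes, ordered by size, with KO 4 as circles, KO 22 as squares, the mean as a tick and its 95% interval from limma as a line. The intervals of the 5 probes of Suz12, Rnf2 and Eed lie above 0, and all 18 lie within the dashed lines that mark a 2-fold difference.

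Taking the subunits together, 18 of the 19 probes were well above background on all 3 arrays and were tested. Limma called 0 of the 18 at an adjusted p below 0.05, where 0.331% of the 26557 probes tested were called, and the lowest member adjusted p was 0.124. At an unadjusted p below 0.05, 5 of the 18 were higher and 0 were lower, where 14.1% of all probes tested were higher and 13.7% lower. The 5 were the probes of Suz12, Rnf2 and Eed. Probes of 1 gene read the same RNA and are not independent. By genes, 3 of 10 were higher and 0 lower, beside 13.3% and 14.9% of the 17727 genes read by their brightest probe.

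Differences as large as those of Suz12, Rnf2 and Eed were common on these arrays. Of all probes tested, 17.6% had a difference at least as high as that of Eed and 12.5% one at least as high as that of Suz12 probe A_52_P302203. Both knockout arrays were above wild type for 7 of the 18 member probes (39.9% of all probes) and below it for 7 (43.6% of all probes), and for 4 the knockout arrays fell on opposite sides. The median difference of the 10 genes was -0.05, against -0.03 over all genes. These shares of direction and the median were close to those of the whole table.

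The intervals hold for these samples under the reported processing, and may not cover scatter between clones or cultures. For all 18 member probes the 95% interval lay within 2-fold of wild type, as it did for 89.3% of the probes above background on all 3 arrays, and the outermost bounds were 0.72 for Suz12 and -0.57 for Cbx7. These intervals rest on the pair of knockout arrays and on the spread shared among probes, and assume that wild type varies likewise. With normexp on all spots most member probes stood outside these intervals, and Ezh1 was the only gene with no probe outside. The Bmi1 probes went furthest, to -1.41 and -1.89, while Ezh2 stood at 0.47 and Eed at 0.83. The knockout arrays differed from each other by a median of 0.06 over the member probes, against 0.10 over all probes tested. With an intensity trend in limma's variance model the 5 probes of Suz12, Rnf2 and Eed did pass, at adjusted p from 0.0225 to 0.0263, where this model called 9.27% of all probes higher and 10.4% lower.

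The differences of Suz12, Rnf2 and Eed on KO 22 were as high as those on KO 4 or higher (0.32 to 0.44 against 0.31 to 0.42). The median difference of the fibroblast markers was 0.71 on KO 4 and -0.09 on KO 22, and their part in the subunit values was not tested.

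**Figure D3:**
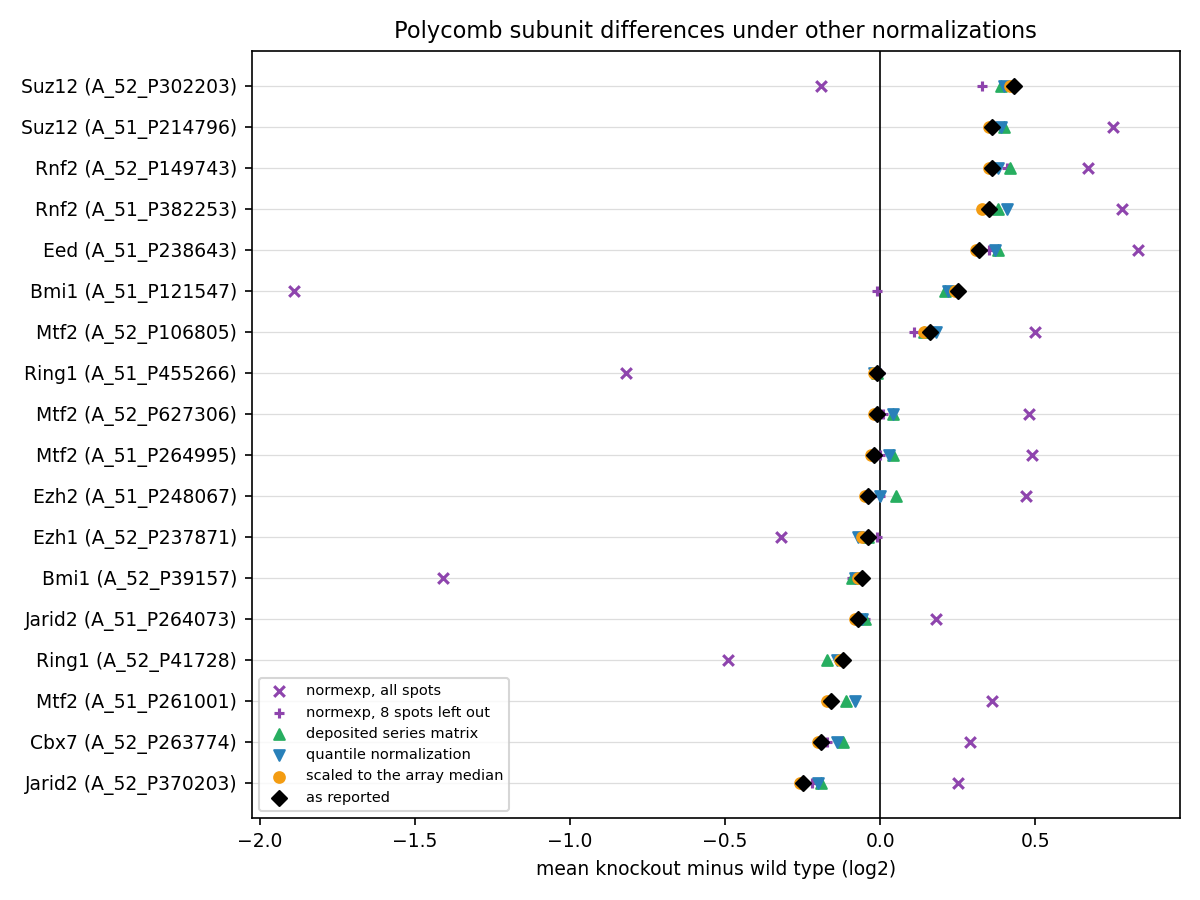
Mean difference of each tested probe as reported (diamonds) and under 5 other normalizations. The 5 probes of Suz12, Rnf2 and Eed stay between 0.31 and 0.43 in all but normexp on all spots (crosses). That setting moved the median of all probes from -0.01 to -0.44. It turned 1 Suz12 probe to -0.19 and raised the rest of the 5 to between 0.67 and 0.83.

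Limma called 0 genes of the 5 related lists. Of 8 further PRC2 genes tested, 5 were higher and 2 lower on both knockout arrays (38.0% and 45.5% of all genes), with a median of 0.14. Over all genes 0.401% were called. Lcorl, whose product is a PRC2 cofactor, had the largest difference, 0.63 ± 0.19 (limma adjusted p = 0.162), with 264 on KO 4, 300 on KO 22 and 166 on wild type. With an intensity trend Lcorl alone of the 8 passed (limma adjusted p = 0.025), where 9.43% of all genes were called higher. Aebp2, which stabilises PRC2, stood at 0.33, and the Polycomb-like genes Phf1 and Phf19 stood at -0.33 and 0.19. The histone-binding subunits Rbbp4 and Rbbp7 were at -0.13 and 0.13, and Epop at -0.07.

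Of 23 further PRC1 genes tested, 8 were higher and 14 lower on both knockout arrays (38.0% and 45.5% of all genes). The median was -0.09, against -0.03 over all genes. At an unadjusted p below 0.05, 5 were higher and 4 lower, beside 13.3% and 14.9% of all genes. With an intensity trend 4 and 4 passed, where 9.43% and 12.2% of all genes did. The higher ones included Phc2, a scaffold subunit that polymerises (0.58 ± 0.09, limma adjusted p = 0.103), and Pcgf5, a RING finger partner of Rnf2 (0.52 ± 0.10, limma adjusted p = 0.112). Phc2 gave 3742 on KO 4, 3302 on KO 22 and 2156 on wild type. The lowest was Bcor, a corepressor of the Pcgf1 complex, at -0.73 ± 0.18 (limma adjusted p = 0.138), with 1831, 1313 and 2356. These 3 differences were larger than that of any of the 10 subunits, and none passed.

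The last lists of chromatin genes hold those that act against the Polycomb marks. Over all genes 45.5% were below and 38.0% above wild type on both knockout arrays, and the median was -0.03. Of 6 subunits of H2A deubiquitinases or their partners, 5 were lower on both knockout arrays, with a median of -0.22 and the lowest value for Mysm1 (-0.40 ± 0.12, limma adjusted p = 0.163). With an intensity trend Mysm1 alone of the 6 passed (limma adjusted p = 0.0358), where 12.2% of all genes were called lower. Asxl1, Asxl2 and Bap1 stood at -0.24, -0.24 and -0.19. Of 11 trithorax and H3K27 demethylase genes, 8 were lower and 0 higher on both, with a median of -0.15. The lowest were the methyltransferase gene Kmt2c at -0.31 and Men1, a scaffold of its relatives, at -0.27, and neither passed (limma adjusted p = 0.222 and 0.204). The demethylase gene Kdm6b stood at -0.18 and Rbbp5 at -0.16.

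The developmental regulators that PRC2 is known to bind in ES cells had differences of a wider range than the subunits. Of 40 listed, 31 were tested, since 9 were not well above background on any array, and the median size of their differences was 0.62 against 0.17 for the 10 subunits and 0.22 over all genes. They went both ways, with 16 higher and 13 lower on both knockout arrays, where 38.0% and 45.5% of all genes were, and a median of 0.04. At an unadjusted p below 0.05, 9 were higher and 7 lower, beside 13.3% and 14.9% of all genes. With an intensity trend 8 and 6 passed, beside 9.43% and 12.2%. The list was chosen with earlier results of these data known, so these counts are no independent test of it. Pax6, a regulator of eye and brain, gave 49.9 on KO 4, 57.2 on KO 22 and 161 on wild type, a difference of -1.71 ± 0.19 (limma adjusted p = 0.0917). The endoderm regulators Foxa2 and Sox17 stood at -1.63 and -1.36, and the trophoblast and mesendoderm regulator Eomes at 1.27. Binding by PRC2 was not measured on these arrays, and the wider spread was not tested against that of the subunits. The regulators were also dimmer, with a summed wild type intensity of 7871 over 31 genes against 51048 over the 10 subunits. The part of intensity in the wider spread was not tested.

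**Figure D4:**
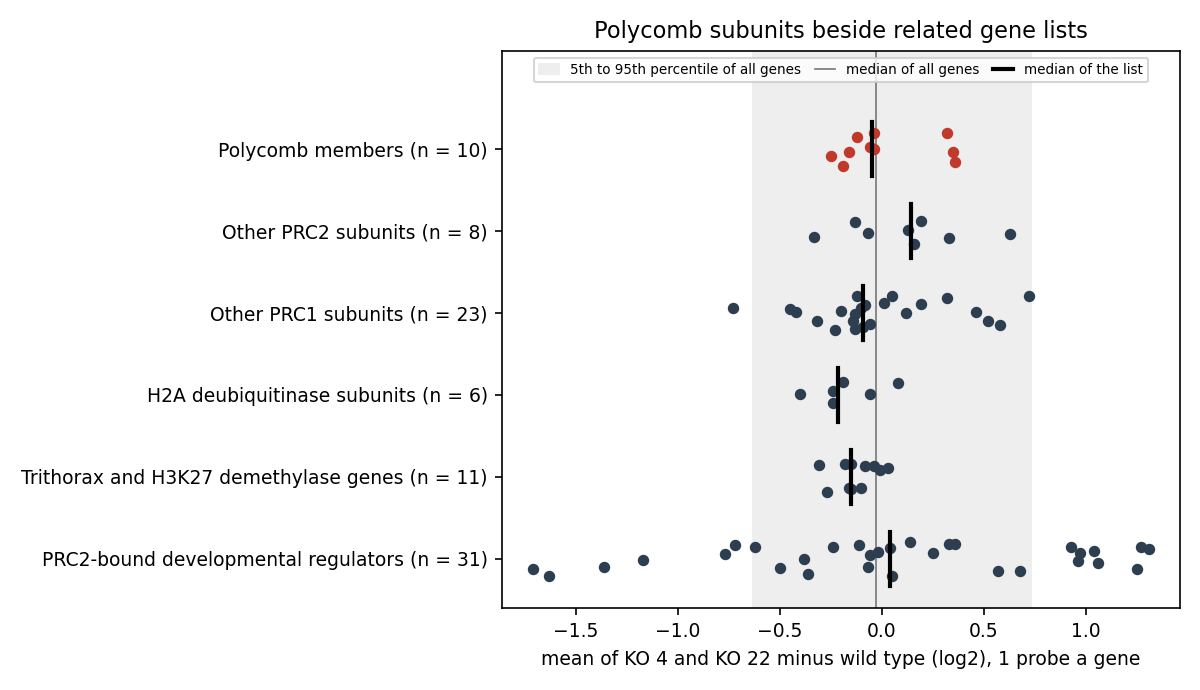
Difference from wild type of each gene (1 probe a gene, the mean of both knockout arrays) for the Polycomb subunits and 5 related lists, with the median of each list as a bar and the 5th to 95th percentile of all genes (-0.63 to 0.73) shaded. All 10 subunits lie inside the shaded range, between -0.25 and 0.36, and the PRC2-bound developmental regulators above background on all 3 arrays reach from -1.71 (Pax6) to 1.27 (Eomes). The point at 1.31 is Tbx5, which was not well above background on every array and whose interval runs from -1.44 to 4.06.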

How the data were processed

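The scanner files hold spot intensity values that the authors made with Agilent Feature Extraction 10.1.1.1. Per the file headers, local background correction was off, spatial detrending was on, and surrogates were used for dim spots. The authors' deposited series matrix holds log2 values whose columns share a median of 5.52; the sources used here do not give its background treatment, and the submitters' processing notes name limma. From the processed intensity, log2 values were taken, the 75th percentile of the non-control spots was subtracted array by array, feature outliers were dropped and repeat spots were averaged. Of 41174 probes 79.5% were matched to the reference table (GRCm38.p6) by accession, symbol or synonym. Probes well above background on at least 1 array were fitted with limma 3.58.1 in R 4.3.3 (lmFit, eBayes), with Benjamini-Hochberg adjustment over 26557 probes. Each probe has 1 residual degree of freedom, 3.25 after moderation, and the spread of the knockout arrays stands in for that of wild type. For lists, the probe with the highest mean read its gene. All 10 members are named, with all probes, and from each other list the 4 genes with the largest difference above background on all arrays, of which 1 is not reported here. A few further list members (Rbbp4, Rbbp7, Epop, Tbx5) were chosen after their values were seen. The members and lists were chosen with earlier results of these data known. Of these steps only the limma fit was tested on simulated levels, which were given the same spread in wild type and knockout. Probe positions are on build mm7, per the file headers, and promoter sequences are from RefSeq, which matched all 10 genes. Alternatives were other scalings, background corrections, filters, variance models and units.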

Additional observations from a re-analysis of the deposited data

How the results depend on the processing

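The 5 probes of Suz12, Rnf2 and Eed kept a positive difference under every alternative in which they had a value, except Suz12 probe A_52_P302203 (-0.19 with normexp background correction on all spots). They passed with normexp without the 8 spots dimmer than their background, with normexp on all spots but for that Suz12 probe, and with an intensity trend, and in no other alternative. Counts of called member probes were 0 except in the following settings. With an intensity trend 5 were higher, beside 2463 of all 26557 probes. Normexp without the 8 spots gave 5 higher, beside 2232 of all 26554 probes. Normexp on all spots gave 11 higher and 5 lower, beside 6614 and 14756 of all 26557 probes. Over all probes limma called 14 higher and 74 lower as reported. It called 31 higher when scaled to the array median, 6 with 1 probe a gene and 7 with probes of a gene averaged. Higher and lower calls were 1007 and 911 in the deposited series matrix, 1065 and 749 with only probes above background on all 3 arrays, 2463 and 2766 with an intensity trend, 2232 and 2901 with normexp without the 8 spots, and 6614 and 14756 with normexp on all spots. Without a filter limma called 0 and 0, with 8703 of 41146 probes at an unadjusted p below 0.05.

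Normexp on all spots moved the median of all probes from -0.01 to -0.44 and that of the member genes to 0.33, and 8 wild type spots dimmer than their background drove it, since without them the median of all probes was -0.04. With it Ezh2 turned to 0.47, Jarid2 to 0.18 and 0.25, Mtf2 to 0.36, 0.49 and 0.48, Cbx7 to 0.29 and Bmi1 probe A_51_P121547 to -1.89. The list medians turned to -0.02 for further PRC2 genes, 0.11 for further PRC1 genes, 0.22 for deubiquitinase genes, 0.05 for trithorax genes and -1.47 for PRC2-bound regulators, which stood at -0.06 without the 8 spots. With quantile normalization the median was -0.15 for deubiquitinase genes, -0.09 for trithorax genes and -0.05 for further PRC1 genes. In the series matrix these medians were -0.14, -0.08 and -0.06. Small differences changed sign elsewhere, and the cause was not tested. Ezh2 was 0.05 in the series matrix. The Mtf2 probes A_51_P264995 and A_52_P627306 were 0.03 and 0.04 with quantile normalization and 0.04 each in the series matrix, and the second was 0.01 with normexp without the 8 spots. Bmi1 was -0.01 on A_51_P121547 with that normexp and 0.10 with its probes averaged. With 1 knockout array left out, a value with no test, Ezh1 ran from -0.17 to 0.08, these Mtf2 probes from -0.07 to 0.03 and from -0.06 to 0.04, and the Ring1 probe A_51_P455266 from -0.07 to 0.06. The alternative that also left out spots with a background flag was chosen after seeing the data and gave no value for Ezh2 and for 1 probe each of Rnf2 and Ring1. No paired analysis was possible because the groups share no replicate number. Signal over background left Jarid2 probe A_52_P244712 without a level.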
